A study of Mus musculus with 12 samples.

Results

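RNA from the liver of male mice depleted of CD301b-positive cells was compared with RNA from the liver of male mice that keep them. CD301b is a lectin of certain macrophages and dendritic cells, encoded by Mgl2, and the study asked what these mononuclear phagocytes do in white fat and liver. The liver samples were 4 of the series' 12 arrays, namely 2 from Mgl2-DTR mice and 2 from wild-type mice, and the other 8 arrays held epididymal and inguinal white fat of the same genotypes. The comparison took all 22180 genes with a probe that carries a single symbol, at the brightest such probe, of which 12710 exceeded a filter level of 5.71 in at least 1 tissue and were tested. All mice, wild-type included, were of the C57BL/6N background and matched in age, received repeated injections of 500 ng of diphtheria toxin into the abdomen, and gave tissue on day 10. Mgl2-DTR mice carry the toxin's receptor under the control of Mgl2, so the toxin can kill any cell that uses that gene, in any organ. Wild-type mice lack this receptor, so the toxin itself is common to both groups.

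Much of liver metabolism in mice differs between the sexes. The pituitary releases growth hormone in separated pulses in males and more evenly in females, and through the kinase Jak2 and the transcription factor Stat5b these patterns set the levels of cytochrome P450 enzymes, sulfotransferases, steroid dehydrogenases and transporters in hepatocytes. Genes that are high in male liver include Selenbp2, Hsd3b5, Elovl3 and the Cyp4a12 pair, and genes that are high in female liver include Cyp2b9, Slc22a26 and Cyp4a14. The liver also holds the body's largest pool of resident macrophages, the Kupffer cells, which line its sinusoids and carry Clec4f, Timd4, Vsig4 and Marco.

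The bases before the start of 4 genes that changed are shown for the opposite directions they took, the first pair for rises and the second pair for falls. They are RefSeq sequences of build GRCm38.p6, written 5′ to 3′ on the gene's own strand and ending just before the first annotated base of the gene. Capitals mark matches to TTCNNNGAA, the core bound by STAT factors, or to CACGTG, an E-box, on either strand. The Cyp2b9 bases lie at chr7:26173159-26173349 on the plus strand, those of Slc22a26 at chr19:7802668-7802917 on the minus strand, those of Hsd3b5 at chr3:98645535-98645784 on the minus strand and those of Onecut1 at chr9:74861671-74861920 on the plus strand.
Cyp2b9: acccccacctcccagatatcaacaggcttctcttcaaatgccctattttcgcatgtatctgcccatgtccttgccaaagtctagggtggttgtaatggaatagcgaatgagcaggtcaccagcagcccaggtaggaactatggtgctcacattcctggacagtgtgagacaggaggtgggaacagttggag
Slc22a26: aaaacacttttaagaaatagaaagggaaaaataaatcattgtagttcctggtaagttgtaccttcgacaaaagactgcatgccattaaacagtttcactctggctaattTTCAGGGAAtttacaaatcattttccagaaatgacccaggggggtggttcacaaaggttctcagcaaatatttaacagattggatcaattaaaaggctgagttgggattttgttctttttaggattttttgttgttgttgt
Hsd3b5: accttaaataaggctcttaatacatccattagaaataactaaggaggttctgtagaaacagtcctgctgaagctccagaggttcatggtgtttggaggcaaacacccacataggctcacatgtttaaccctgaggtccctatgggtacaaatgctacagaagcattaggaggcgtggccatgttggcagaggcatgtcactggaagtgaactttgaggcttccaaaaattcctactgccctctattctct
Onecut1: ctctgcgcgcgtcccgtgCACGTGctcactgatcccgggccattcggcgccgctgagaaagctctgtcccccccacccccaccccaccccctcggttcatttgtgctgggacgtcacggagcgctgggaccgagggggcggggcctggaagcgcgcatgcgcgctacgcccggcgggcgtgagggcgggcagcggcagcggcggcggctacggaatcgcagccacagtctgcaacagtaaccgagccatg

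These windows differed in the letters searched. Over the table's full windows of 300 bases, 50 of them past the start, TTCNNNGAA was found in Slc22a26 alone among the 6 genes that changed and have a window, at 141 bases before its start, and in 8.19% of the 9972 tested genes with a window. CACGTG was found in Onecut1 alone, at 232 bases before the start, and in 11.4% of those genes. The D-box TTATGTAA was found in Slc22a26 alone, just past its start and so outside the bases shown, and in 0.702% of those genes. The Cyp2b9, Hsd3b5, Selenbp2 and Cyp2c38 windows held none of the 3 motifs.

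The 4 liver arrays were alike as a whole. Their median log2 levels were 5.22 to 5.27, Pearson's r over all probes was 0.979 between the wild-type arrays, 0.982 between the Mgl2-DTR arrays and 0.978 to 0.981 between genotypes, and the number of arrays, 2 per group, limits the precision of every value. The mean of 13 hepatocyte genes was 12.41 and 12.40 in wild-type liver and 12.42 and 12.41 in Mgl2-DTR liver, against 5.65 to 6.86 in fat. The adipocyte list stayed at 5.68 to 5.92, and Xist at 3.69 to 4.28 and Uty at 7.69 to 8.0 matched the male label on every liver array. Mgl2 itself stood at 4.36 and 4.12 in wild-type and at 4.59 and 4.03 in Mgl2-DTR liver, all under the filter level (0.07, SE 0.24, limma adjusted p = 1). Clec10a, the other CD301 lectin, and Retnla, a secreted product of alternatively activated macrophages, were under that level on all 4 liver arrays as well. The depletion is therefore seen on the fat arrays, where Mgl2 fell by 3.12 in epididymal and by 2.80 in inguinal fat, and has no measure of its own in liver.

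A total of 9 genes changed in liver, 4 rises (0.0315% of genes tested) and 5 falls (0.0393%), or 0.0708% in all. The rises were those of Cyp2b9, Slc22a26, Cyp4a14 and Cyp2c38, and the falls those of Selenbp2, Cyp4a12b, Onecut1, Hsd3b5 and the transcribed pseudogene Serpina4-ps1. Of the 9, 3 rises are on a list of genes known to be higher in female liver and 3 falls on a list of genes known to be higher in male liver. Each change is the Mgl2-DTR mean less the wild-type mean in log2 units, with its standard error (SE), and a gene passed at a limma adjusted p under 0.05 over all genes tested. Whether replicates came from separate animals is not stated, and in that case a p-value measures only how far these samples spread, which may be technical. An unadjusted p under 0.05 was reached by 703 genes (5.53%), 402 higher (3.16%) and 301 lower (2.37%), and the median change over all genes was 0.01.

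**Figure D1:**
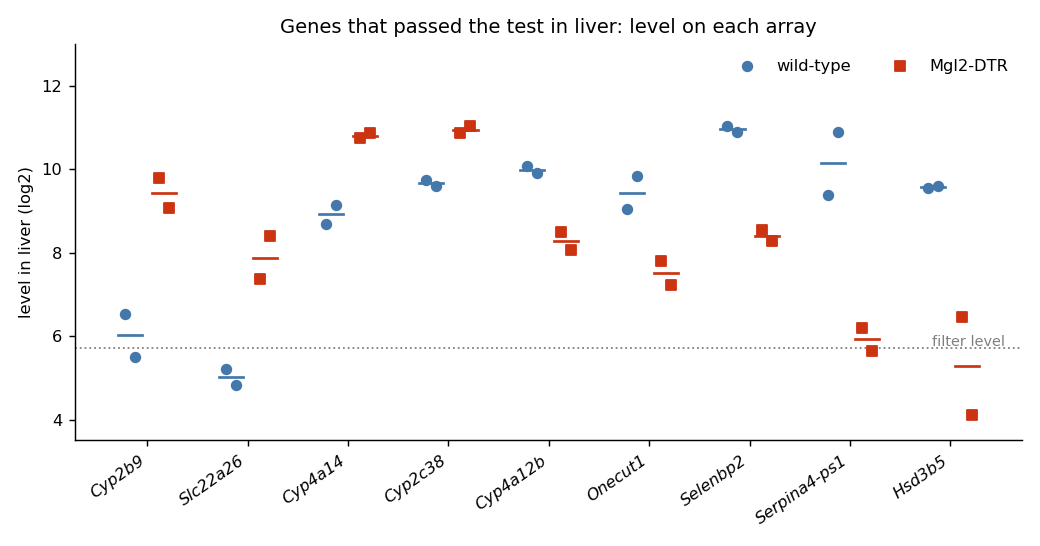
Log2 level of the 9 genes that passed in liver, with 1 point per array, blue circles for wild-type, red squares for Mgl2-DTR and a bar at each group mean (n = 2). In each of the 9 genes both arrays of one genotype lie above both of the other, and the dotted line marks the filter level of 5.71.

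Cyp2b9, a cytochrome P450 of female liver, was at 6.53 and 5.50 in wild-type and at 9.79 and 9.06 in Mgl2-DTR liver. This was a 10.6-fold rise (3.41, SE 0.33, limma adjusted p = 0.011), the largest of any tested gene, although 1 wild-type array lay under the filter level. Slc22a26, an organic anion transporter, was at 5.21 and 4.82 in wild-type and at 7.36 and 8.39 in Mgl2-DTR liver. Its wild-type liver arrays and its fat arrays (3.53 to 4.05) were all under the filter level. Slc22a26 was thus tested only because it was high in Mgl2-DTR liver. It rose by 2.86 (SE 0.28, limma adjusted p = 0.011) from under the filter level, which limits the size of the rise, and it did not pass without wild-type replicate 2 (2.66, adjusted p = 0.0984). Cyp4a14, which hydroxylates fatty acids at their omega end and is a target of the receptor PPAR-alpha, stood at 8.69 and 9.15 against 10.74 and 10.86. Its 3.68-fold rise (1.88, SE 0.21, limma adjusted p = 0.0152) showed nearly equal Mgl2-DTR arrays, but the adjusted p was 0.0543 and 0.22 without one or the other of them and 0.0988 without wild-type replicate 1. Cyp2c38, a P450 of the Cyp2c family, was at 9.75 and 9.59 in wild-type and at 10.86 and 11.03 in Mgl2-DTR liver. It rose 2.43-fold (1.28, SE 0.16, limma adjusted p = 0.036), the smallest change that passed, and its adjusted p was 0.0903 to 0.325 without any 1 of the 4 liver arrays and 0.0615 to 0.094 without any of 6 fat arrays.

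Among the falls, Selenbp2, a selenium-binding protein of male liver, went from 11.04 and 10.88 in wild-type to 8.54 and 8.28 in Mgl2-DTR liver. The fall was 5.9-fold (-2.56, SE 0.22, limma adjusted p = 0.0103), and without Mgl2-DTR replicate 2 the adjusted p was 0.0679. Its close relative Selenbp1, 3 protein-coding genes away on chromosome 3, was at 10.80 and 10.85 against 10.99 and 10.76 (0.05, SE 0.16), so the groups overlapped. Hsd3b5, a male-specific hepatic steroid dehydrogenase, was at 9.55 and 9.59 in wild-type and at 6.46 and 4.12 in Mgl2-DTR liver. The Mgl2-DTR arrays were thus far apart, with replicate 2 under the filter level (-4.28, SE 0.56, limma adjusted p = 0.036), and its adjusted p rose to 0.204 and 0.29 without a wild-type liver array and 0.0733 to 0.094 without any 1 of the fat arrays. Cyp4a12b, which makes hydroxylated arachidonic acid in male liver and kidney, was at 10.07 and 9.91 against 8.49 and 8.06. It fell 3.29-fold (-1.72, SE 0.22, limma adjusted p = 0.036), and it did not pass without either wild-type liver array (0.176 and 0.191), without Mgl2-DTR replicate 2 (0.325) or without any of 6 fat arrays (0.0615 to 0.0876).

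The last falls were of a transcription factor and a pseudogene. Onecut1 encodes HNF-6, a homeodomain factor of hepatocytes and bile ducts that growth hormone is known to induce, and it was at 9.04 and 9.84 in wild-type and at 7.79 and 7.23 in Mgl2-DTR liver. It fell 3.81-fold (-1.93, SE 0.25, limma adjusted p = 0.036), and its adjusted p rose to 0.144 when wild-type replicate 2 was left out, 0.325 without Mgl2-DTR replicate 2 and 0.0733 to 0.094 without any 1 of the fat arrays. Serpina4-ps1, of the serpin gene cluster, had the widest wild-type spread, at 9.38 and 10.90, against 6.20 and 5.65. Its fall was 18.5-fold (-4.21, SE 0.45, limma adjusted p = 0.0152), and without Mgl2-DTR replicate 2 the adjusted p was 0.22. All 9 genes kept their direction without any 1 array, while the number of genes that passed was 6 and 5 without wild-type liver replicates 1 and 2, 14 without Mgl2-DTR replicate 1, 3 without Mgl2-DTR replicate 2 and 5 or 6 without a fat array.

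**Figure D2:**
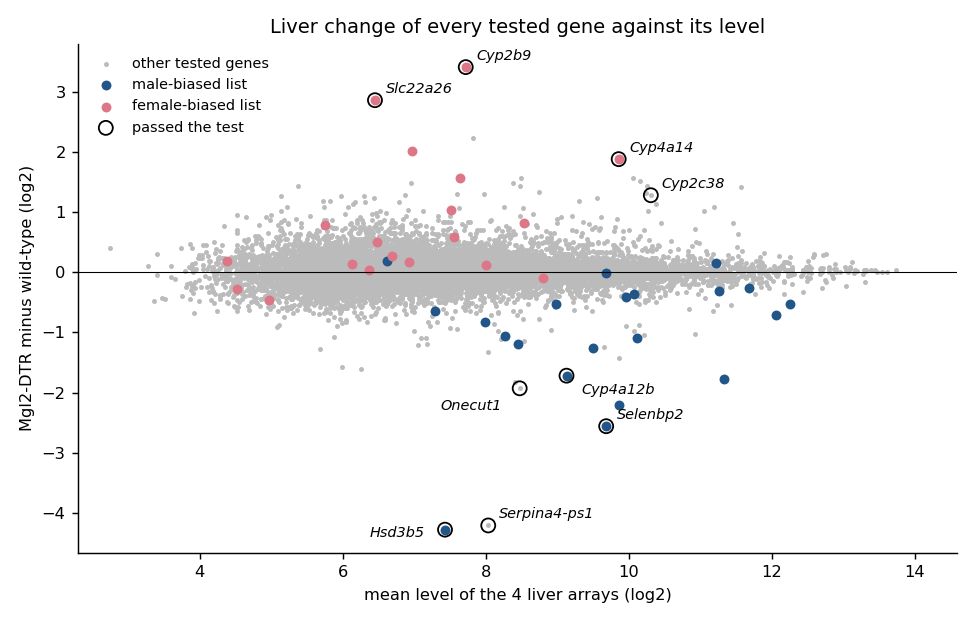
Liver change (log2, Mgl2-DTR less wild-type) of each of the 12710 tested genes against its mean level on the 4 liver arrays, with male-biased genes in blue, female-biased genes in pink and rings around the 9 genes that passed. The blue points lie mostly below 0 and the pink points mostly above it, with Cyp2b9 highest at 3.41 and Hsd3b5 lowest at -4.28.

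A further 7 genes had an adjusted p between 0.05 and 0.10, and in each the groups lay apart, meaning that both arrays of one genotype were above both of the other. Higher were Abcd2, a peroxisomal transporter of very long chain fatty acids (6.68 and 7.04 against 8.67 and 8.17, change 1.56), Marco, a scavenger receptor of Kupffer cells (1.30), Cyp4a31, a fatty acid hydroxylase (0.97, limma adjusted p = 0.0583), and Gadd45b, a stress-response gene that the receptor CAR also induces (0.97). Lower were Dio1, the deiodinase that activates thyroid hormone in liver (9.61 and 9.03 against 7.79 and 7.18, change -1.83), Ces3b, a carboxylesterase (-1.43), and Dusp1, a phosphatase of MAP kinases (10.22 and 10.34 against 8.84 and 9.24, change -1.24). All 7 passed when only the 11170 genes with a liver mean above the filter level were tested, which gave 16 genes, 8 higher and 8 lower. Cyp4a31 met either filter only through its Mgl2-DTR level, since its wild-type arrays (5.43 and 5.67) and all fat arrays were under 5.71, so its pass there adds no support. Over all tested genes the groups lay apart in 34.4%, higher in Mgl2-DTR in 19.2% and lower in 15.2%, so a single gene whose groups lie apart is common in these data.

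Apart from small enzyme families, the male-biased list had the median furthest from 0. Of its 28 genes 25 were measured and 21 tested, of which 3 fell (Selenbp2, Hsd3b5 and Cyp4a12b, against 0.0393% of all genes) and 19 were lower. Of the 21, 16 lay apart lower and 0 lay apart higher, against 15.2% and 19.2% of all genes. The median change was -0.71, against 0.01 over all genes tested. Its mean level was 10.21 and 10.13 on the wild-type arrays and 9.38 and 8.92 on the Mgl2-DTR arrays, so replicate 2 was the lower Mgl2-DTR array, in 16 of the 21 genes. The median stayed between -0.99 and -0.62 with any 1 liver array left out. Since the lists were assembled with earlier results of these data known, their direction is a description and not independent evidence.

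Below the genes that passed, several male-biased genes lay apart lower without passing. Serpina1e, a copy of alpha-1 antitrypsin, was at 11.01 and 10.92 in wild-type and at 8.55 and 8.98 in Mgl2-DTR liver (-2.20, SE 0.51, limma adjusted p = 0.37, or 0.0228 in a fit of the liver arrays alone). Elovl3, an elongase of very long chain fatty acids, was at 12.27 and 12.18 against 11.01 and 9.87 (-1.78, SE 0.52). Slco1a1, a basolateral uptake transporter of organic anions and bile acids, was at 9.96 and 10.30 against 9.30 and 8.44 (-1.26, SE 0.28). In these 3 genes the wild-type arrays stood close together and the Mgl2-DTR arrays well below them.

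Nudt7, a peroxisomal enzyme that cleaves coenzyme A, was at 10.63 and 10.69 in wild-type and at 9.57 and 9.56 in Mgl2-DTR liver (-1.09, SE 0.23, limma adjusted p = 0.316), and this was the tightest pattern of the list. Cyp4a12a, nearly identical to Cyp4a12b and next to it on the chromosome, was at 9.08 and 9.01 against 8.40 and 7.32 (-1.19). Gstp1, a glutathione transferase, gave -0.71 and its copy Gstp2 -0.65, and the major urinary protein genes Mup21 and Mup20 gave -0.65 and -0.53. The groups overlapped in 5 tested genes, of which C8a (0.15) and Gna14 (0.18) were higher and Cyp2d9 (-0.02), Hsd3b2 (-1.06) and Cyp2u1 (-0.53) were lower. Members of such families share near-identical sequence, so how the array divides signal between Cyp4a12a and Cyp4a12b, between Gstp1 and Gstp2, among the Mup genes or among the Serpina1 copies is uncertain. The 4 measured genes that were too dim to test were apart lower in 2 and apart higher in 1.

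The female-biased list leaned the other way. Of its 32 genes 29 were measured and 19 tested, of which 3 rose (Cyp2b9, Slc22a26 and Cyp4a14, against 0.0315% of all genes) and 16 were higher. Of the 19, 10 lay apart higher and 1, Ntrk2, lay apart lower at -0.47, against 19.2% and 15.2% of all genes. The median was 0.50, and it ranged with the array left out from 0.18 without wild-type replicate 1 to 0.97 without wild-type replicate 2. List means were 6.28 and 6.72 in wild-type and 7.28 and 7.35 in Mgl2-DTR liver. Many of these genes are dim in male liver, so the filter kept those that were raised on some arrays, and the 10 measured genes it left out were apart higher in 4, apart lower in 2 and overlapping in 4.

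Abcd2, given above, is one of the female-biased genes that did not pass. Cyp2c69, a P450 of female liver, was at 5.10 and 6.81 in wild-type and at 8.05 and 7.89 in Mgl2-DTR liver (2.01, SE 0.43, limma adjusted p = 0.346). Most of its error lay in the wild-type pair, and its change was 2.87 without wild-type replicate 2 and 1.16 without wild-type replicate 1. Fmo2, a flavin monooxygenase, was at 6.88 and 7.12 against 8.07 and 7.99 (1.03, SE 0.26), and Acot3, a peroxisomal thioesterase, at 5.17 and 5.54 against 5.99 and 6.28 (0.78, SE 0.18). Acot3 met the filter only through its Mgl2-DTR level, as its wild-type liver arrays and its fat arrays were all under it. Of the dim genes, Slc22a27, which adjoins Slc22a26, read 3.60 and 3.67 against 5.0 and 5.68, and Cyp3a44 read 4.54 and 4.29 against 6.24 and 5.88. Sult2a1, Cyp2b13 and Cyp3a16 stayed under the filter level on every liver array, as Slc22a27 did, so no change can be read for them. Cyp2a4 (0.12) and Cux2 (0.13), the latter a transcriptional regulator of female-biased genes, had overlapping groups.

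**Figure D3:**
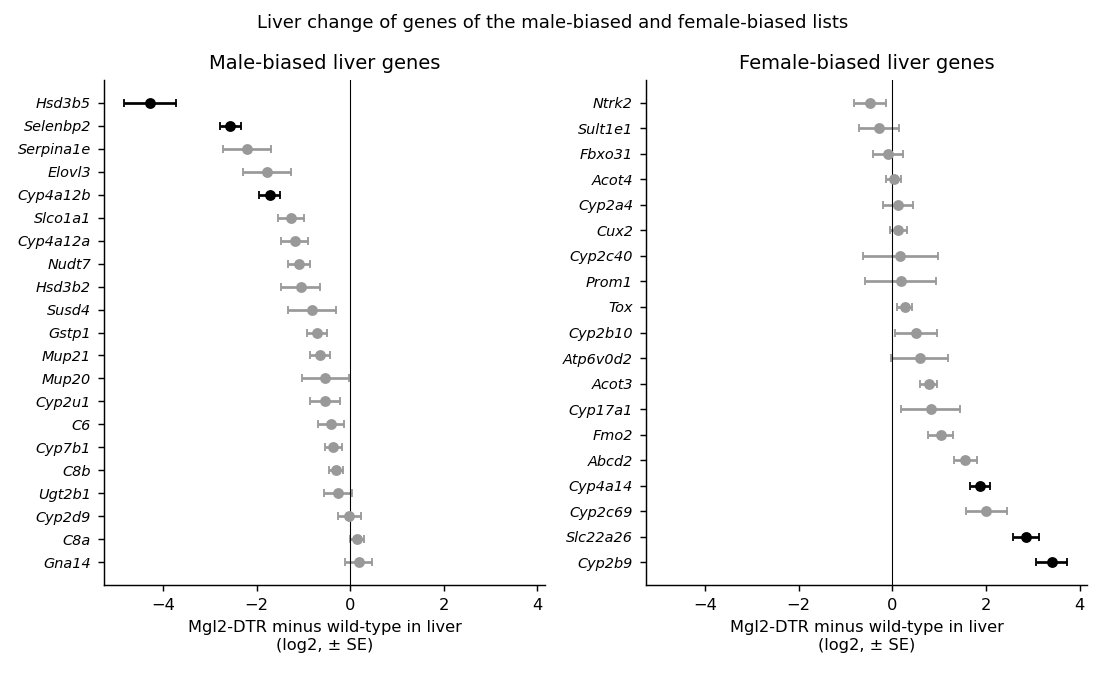
Liver change (log2, ± SE) of the 21 tested male-biased genes on the left and the 19 tested female-biased genes on the right, with black points for the genes that passed. On the left 19 of 21 points lie below 0 and on the right 16 of 19 lie above it.

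Of the 75 tested genes that differed by 1 log2 unit (2-fold) or more, 48 higher and 27 lower, 9 of the lower ones were male-biased and 6 of the higher ones female-biased. The male-biased and female-biased lists hold 21 and 19 of the 12710 tested genes. There were 0 genes of either list that moved by that much in the other direction. Female-biased genes that are dim in male liver had little room to fall, and both lists were assembled with earlier results known. These counts are therefore a description and not evidence.

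The genes of growth hormone signalling themselves moved less. Of 19 tested, 1 fell, Onecut1 (against 0.0393% of all genes), 12 were lower and 7 higher, with a median of -0.17. Of these 7 lay apart lower and 3 apart higher, against 15.2% and 19.2% of all genes. Igfbp1 had the highest change of the list (1.32, SE 0.56), with overlapping groups. Igf1, the main hormone that growth hormone induces in liver, was at 11.36 and 11.21 against 10.94 and 10.77 (-0.43, SE 0.20, limma adjusted p = 0.908), and Igfbp2, which binds it, at 10.33 and 10.38 against 9.85 and 9.87 (-0.49, SE 0.20). In both the groups lay apart. Igf1 was lower in epididymal (-0.51) and inguinal fat (-0.49) as well. Cish, a feedback inhibitor that Stat5 induces, was at 7.35 and 8.07 against 6.75 and 6.47 (-1.10, SE 0.46), and the wild-type arrays differed by more than the gap between groups. The receptor Ghr (-0.19) and Stat5b (-0.17) were nearly level. Other liver transcription factors lay apart lower as well, with Foxa2 at 8.61 and 9.21 against 8.21 and 8.05 (-0.77, SE 0.20) and Cebpa at 9.79 and 9.82 against 9.33 and 8.99 (-0.64, SE 0.22). Of the 19 tested factors 7 lay apart lower, Onecut1 included, and 1 apart higher, against 15.2% and 19.2% of all genes.

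Within enzyme and transporter families, single members moved and most did not. Over all tested genes 0.0315% rose, 0.0393% fell and 52.2% were higher. Of the 12 tested Cyp2c genes 1 rose, Cyp2c38, and 11 were higher with a median of 0.17, among them Cyp2c39, its direct neighbour on chromosome 19, at 5.60 and 6.82 against 7.60 and 7.14 (1.16, SE 0.35). Of 4 tested Cyp4a genes 1 rose and 1 fell: Cyp4a12b and Cyp4a14 lie in 1 cluster on chromosome 4 with a single protein-coding gene between them, and moved in opposite directions. All 4 tested Cyp3a genes were higher and 0 passed, led by Cyp3a13 at 10.70 and 10.41 against 11.15 and 11.98 (1.01, SE 0.24) and Cyp3a25 (0.78, SE 0.27). Of 13 tested Slc22 transporters 1 rose, Slc22a26, while Slc22a7, an anion carrier of the hepatocyte, was at 7.86 and 7.69 against 6.99 and 6.18 (-1.19, SE 0.25). All 4 tested Hsd3b genes were lower and 1 fell, Hsd3b5. Sult5a1 (-1.21, SE 0.34) led the 6 tested sulfotransferases and Ces1g (-0.54, SE 0.19) followed Ces3b among 12 carboxylesterases, with 0 of either family passing. Relatives in the Cyp2b, Cyp2c, Cyp3a and Slc22 clusters can share probe sequence, so the split of signal among them is uncertain.

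Bile acid genes showed 0 of 26 tested genes passing and a median of -0.05. Of the 26, 9 lay apart lower and 4 apart higher, against 15.2% and 19.2% of all genes. Cyp7a1, the rate-limiting enzyme of bile acid synthesis, was at 10.87 and 10.31 in wild-type and at 9.88 and 9.53 in Mgl2-DTR liver (-0.88, SE 0.21, limma adjusted p = 0.381). Cyp8b1, which directs synthesis to cholic acid, was at 11.58 and 11.31 against 10.59 and 10.24 (-1.03, SE 0.23, limma adjusted p = 0.361). Both enzymes were thus lower on both Mgl2-DTR arrays. Slco1a4, another organic anion and bile acid uptake carrier, went opposite to Slco1a1, at 7.83 and 7.61 against 8.83 and 9.72 (1.56, SE 0.26, limma adjusted p = 0.113). Its change was 2.0 without Mgl2-DTR replicate 1 and 1.11 without Mgl2-DTR replicate 2.

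Lipid and thyroid genes gave few differences. Of 26 tested genes of fatty acid oxidation and PPAR-alpha 1 rose, Cyp4a14 (against 0.0315% of all genes), with a median of 0.03. Ppara itself was at -0.43 (SE 0.21) and the fatty acid carrier Cd36 at 0.43 (SE 0.15). The 20 genes of fatty acid synthesis had a median of 0, with 0 passing and Thrsp, a lipogenic thyroid target, at -0.61 (SE 0.33). Of 12 genes of thyroid hormone metabolism and response 0 passed. Besides Dio1, Serpina7, which encodes thyroxine-binding globulin, was at 7.58 and 7.94 against 8.71 and 9.69 (1.44, SE 0.27, limma adjusted p = 0.216). Its change was 1.93 without Mgl2-DTR replicate 1 and 0.95 without Mgl2-DTR replicate 2. The secreted factors Angptl8 (10.66 and 10.48 against 9.57 and 9.61, change -0.98) and Enho (7.19 and 7.21 against 6.74 and 6.74, change -0.46, SE 0.13), which encode a lipase regulator and adropin, lay apart lower without passing.

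Macrophage genes were higher in Mgl2-DTR liver as a group, and 0 of them passed. Of 20 tested pan-macrophage genes 19 were higher and all 19 lay apart higher, against 19.2% of all genes, with a median of 0.59. The list mean was 7.90 and 7.78 in wild-type and 8.37 and 8.36 in Mgl2-DTR liver, and 19 of 20 were higher with any 1 liver array left out. Csf1r, the receptor for the main macrophage growth factor, was at 9.28 and 9.02 against 9.98 and 9.83 (0.75, SE 0.35), and C1qc, a chain of complement C1q, at 7.91 and 7.90 against 8.59 and 8.43 (0.61, SE 0.17, limma adjusted p = 0.591). In bulk tissue, more cells of a type and more RNA per cell cannot be told apart. The exception was Cx3cr1, the fractalkine receptor of monocytes and some tissue macrophages, at 6.78 and 6.81 against 6.19 and 6.08 (-0.66, SE 0.13, limma adjusted p = 0.216).

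Kupffer cell markers followed the same course. Of 12 tested, 10 were higher, 8 lay apart higher (19.2% of all genes did), 1 lay apart lower (the complement gene C6, which is also male-biased) and 0 passed, with a median of 0.49 and list means of 8.81 and 8.78 against 9.25 and 9.24. Marco was at 7.5 and 7.17 against 8.78 and 8.48, and Vsig4, a complement receptor, at 9.60 and 9.17 against 10.26 and 10.29 (0.89, SE 0.26). Clec4f, a lectin found on Kupffer cells, gave 0.54 (SE 0.16) and Timd4, a receptor for dying cells, 0.73 (SE 0.34). Of 6 tested genes of MHC class II, which present antigen, 6 were higher and 4 lay apart higher (19.2% of all genes did). H2-Aa was at 7.91 and 7.87 against 8.66 and 8.67 (0.77, SE 0.20) and H2-Ab1 gave 0.76. Markers of phagocytes with CD301b and of conventional dendritic cells gave 13 tested genes, 0 passing and a median of 0.13. Of the 14 measured, 7 were under the filter level in liver of both genotypes, so this median cannot show whether such cells were lost there. Endothelial markers averaged 8.07 and 8.29 against 8.29 and 8.22, and stellate cell and fibroblast markers 7.33 and 7.34 against 7.56 and 6.94, so neither set the genotypes apart.

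The error behind these values is not that of the liver arrays alone. Each SE uses 1 spread per gene over all 6 groups. The difference between the replicates of a group had an SD over genes of 0.32 in wild-type and 0.30 in Mgl2-DTR liver, but of 0.51 and 0.55 in epididymal fat. Macrophage genes vary strongly between fat arrays, so their SE can be too large for liver. For genes that are dim in fat the SE can be too small for liver. Hsd3b5 had group SDs of 0.022 and 1.7 in liver but 0.029 to 0.25 in fat, and an SE of 0.56. A fit of the liver arrays alone gave 7 genes that passed, 6 of them among the 9. Hsd3b5 (limma adjusted p = 0.102), Onecut1 (0.103) and Cyp2c38 (0.0808) did not pass in that fit. With 2 arrays against 2 an exact permutation test of a single gene cannot go below p = 0.333.

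**Figure D4:**
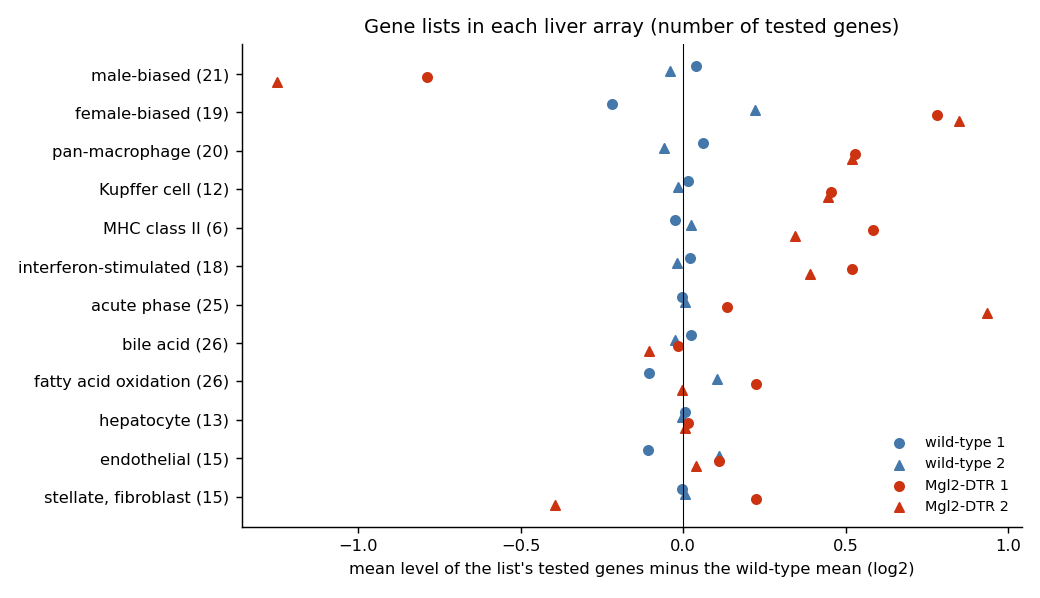
Mean log2 level of 12 gene lists on each liver array, given as the difference from the mean of the wild-type arrays, with blue for wild-type, red for Mgl2-DTR, circles for replicate 1 and triangles for replicate 2, and the number of tested genes in brackets. The male-biased list lies left of 0 and the female-biased, macrophage and interferon lists right of it on both Mgl2-DTR arrays, while the acute phase list is far right on Mgl2-DTR replicate 2 only.

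Interferon-stimulated genes were higher by a similar amount. Of 18 tested, 16 were higher and lay apart higher (19.2% of all genes did), Ifit3 lay apart lower and 0 passed, with a median of 0.40. Zbp1, a sensor of nucleic acids, was at 7.08 and 6.82 against 8.05 and 8.44 (1.30, SE 0.30, limma adjusted p = 0.361), and Oasl2 at 6.26 and 6.26 against 6.99 and 7.18 (0.82, SE 0.22). Both lay apart higher in fat too, Zbp1 by 0.60 in epididymal and 0.65 in inguinal fat and Oasl2 by 0.42 and 0.53. With any 1 liver array left out 16 or 17 of the 18 stayed higher. Of 5 tested T and NK cell genes 3 were higher and 2 lower, with 0 passing and a median of 0.29. Of the T cell receptor chains among them, Cd3e was at 5.99 and 6.23 against 7.06 and 6.77 (0.81, SE 0.18) and Cd3g gave 0.88, while the coreceptor Cd4 gave -0.21. Of 16 tested inflammatory cytokine genes 9 were higher and 7 lower, with 0 passing and a median of 0.11. Among them the chemokine Ccl5 was at 7.35 and 6.83 against 8.64 and 7.69 (1.07, SE 0.30).

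Acute phase genes, which hepatocytes raise in inflammation, were higher mainly on a single array. All 25 tested genes were higher, 12 lay apart higher (against 19.2% of all genes), 0 passed and the median was 0.36, but the list mean was 10.71 and 10.72 in wild-type and 10.85 and 11.65 in Mgl2-DTR liver, with replicate 2 far above the other 3 arrays. Each of the 25 was higher in replicate 2 than in replicate 1 of Mgl2-DTR, and without replicate 2 the median was 0.08, with 17 of 25 higher. Saa2, a serum amyloid A gene, was at 10.03 and 8.77 against 8.88 and 12.98, so it reversed to -0.52 without that array. Lcn2, a siderophore-binding protein, was at 9.70 and 9.38 against 10.11 and 11.85. Cxcl1, a neutrophil chemokine of the inflammatory cytokine list, was at 6.26 and 7.17 against 7.85 and 10.04 (2.23, SE 0.67). Apcs, serum amyloid P, was at 8.66 and 8.75 against 9.26 and 10.52 (1.19, SE 0.32) and Fgl1 at 0.81 (SE 0.26). The male-biased list was lowest on that same array, at 8.92, against 9.38 on Mgl2-DTR replicate 1 and 10.21 and 10.13 in wild-type. The part of inflammation in that change was not tested.

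Stress genes had a median of 0.30 over 18 tested genes, which was -0.01 without wild-type replicate 1, with 0 passing. Ddit3, the transcription factor CHOP, was at 6.62 and 6.73 against 7.25 and 7.64 (0.77, SE 0.18), while Asns, an amino acid response gene, was at 6.90 and 6.28 against 5.88 and 5.95 (-0.68, SE 0.22). Gas6, a ligand of receptors for dying cells, was at 9.08 and 8.78 against 9.71 and 10.63 (1.24, SE 0.33). The 13 hepatocyte genes (median 0), 18 genes of amino acid catabolism (-0.06), 20 of the respiratory chain (-0.07), 17 of cholesterol synthesis (0.14), 17 of the cell cycle (-0.02) and 19 of the circadian clock (-0.12) had 0 genes passing each. The cholesterol synthesis median turned without wild-type replicate 2 (-0.07, with 6 of 17 higher, against 15 of 17). The clock median turned as well, to 0.06 with wild-type replicate 2 left out and to 0.13 with Mgl2-DTR replicate 1 left out, and those of the cell cycle, amino acid catabolism and the respiratory chain each turned without 1 liver array, so these lists have no settled direction.

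The liver changes were set against the same genotype difference in fat, by subtracting the mean of the epididymal and inguinal changes from the liver change. In this difference 30 genes passed (0.236% of genes tested), 23 higher (0.181%) and 7 lower (0.0551%) in liver. Of the 9 genes that changed in liver 7 also passed there: Cyp2b9 (3.62, SE 0.40), Slc22a26 (2.87, SE 0.35), Cyp4a14 (1.98, SE 0.25), Cyp2c38 (1.41, SE 0.20), Selenbp2 (-2.37, SE 0.27), Onecut1 (-2.08, SE 0.31) and Serpina4-ps1 (-4.12, SE 0.55). Hsd3b5 (-4.24, adjusted p = 0.0566) and Cyp4a12b (-1.57, adjusted p = 0.0701) did not. In fat the changes of all 9 lay between -0.36 and 0.20, but 7 of them were under the filter level on all 8 fat arrays (2.49 to 4.56), where no change could be seen. Selenbp2, at 6.26 to 7.03 in fat, is the exception that stayed above it on every fat array, and there it gave -0.27 and -0.11.

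**Figure D5:**
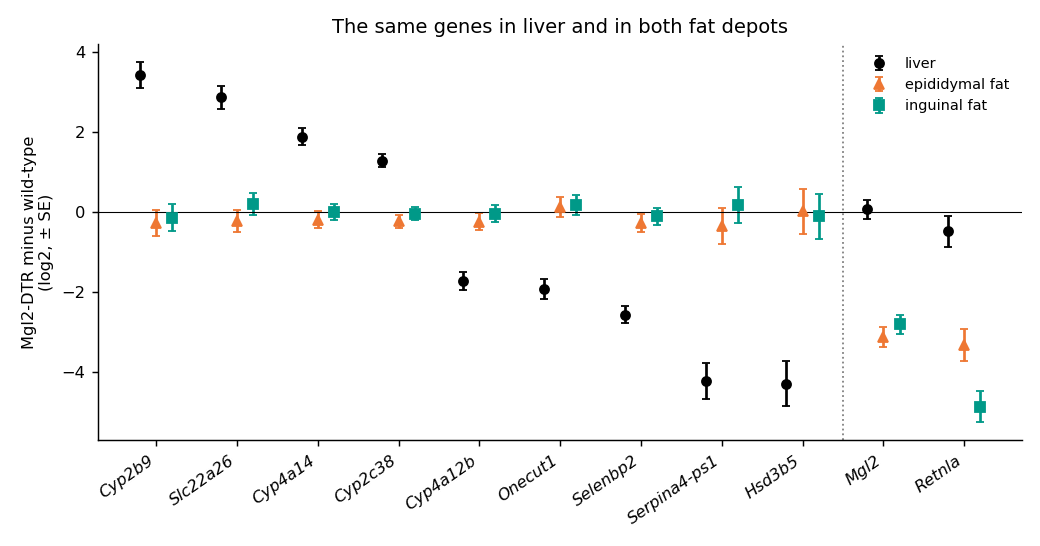
Genotype difference (log2, ± SE, Mgl2-DTR less wild-type) in liver, epididymal fat and inguinal fat for the 9 genes that passed in liver, left of the dotted line, and for Mgl2 and Retnla on the right. The 9 genes lie near 0 in both fat depots, most of them at levels too dim to show a change, while Mgl2 falls in both depots and is too dim in liver.

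Macrophage genes went in opposite directions in liver and fat. Of the 20 pan-macrophage genes 19 were higher in liver, while 19 were lower in epididymal fat (median -0.95) and 18 in inguinal fat (median -1.0). The test of the difference passed for C1qa (1.84), C1qb (2.26), C1qc (2.22, SE 0.21, limma adjusted p = 0.0107) and, lower in liver, for Cx3cr1 (-0.99, SE 0.15, limma adjusted p = 0.0448). It also passed for Vsig4 (2.26, SE 0.32) and Folr2 (2.47, SE 0.30), a folate receptor of resident macrophages, and for the MHC class II genes H2-Aa (2.17), H2-Ab1 (2.28) and H2-Eb1 (1.80). None of these genes passed in liver itself. C1qc changed by 0.61 in liver, by -1.2 in epididymal and by -2.03 in inguinal fat. H2-Ab1 gave 0.76, -1.18 and -1.85 in the same order, and Folr2 0.65, -1.2 and -2.43. In C1qc, H2-Ab1 and Folr2 the change in fat was thus larger than that in liver. The difference also passed for Mgl2 (3.03, SE 0.30) and Retnla (3.61, SE 0.48), where it comes from fat, since both were under the filter level in liver. The count of 30 depended on the arrays kept in all tissues. It was 12, 0, 15 and 6 without wild-type liver replicates 1 and 2 and Mgl2-DTR liver replicates 1 and 2 in turn, 244 without wild-type epididymal replicate 2 and 134 without Mgl2-DTR epididymal replicate 1.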

How the data were processed

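RNA of 12 mouse tissue samples was measured on Affymetrix gene arrays after labelling with the GeneChip WT PLUS kit, per the labels' protocols. The deposited values are log2 levels that the authors had normalized, 1 column per sample, and limma is named in the submitters' processing notes. How background, normalization and probe summary were handled is not given in the sources used here. Of 41345 probes 23521 carry 1 gene symbol, 1814 several and 16010 none that is listed; they cover 22180 genes, of which 1082 have over 1 probe, and the brightest was used. RefSeq held 23328 of the probes' Entrez identifiers and updated 0 symbols.

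Genes with a mean over the 4 arrays of any tissue above 5.71, the median of all single-symbol values, were tested. This filter used all tissues, so 1540 tested genes had a liver mean at or under it. The model (limma 3.58.1, R 4.3.3) gave each of the 6 groups a mean, used all 12 arrays and left 6 residual and 3.35 prior degrees of freedom (eBayes without trend). Tests were two-sided, with Benjamini-Hochberg adjustment over the 12710 genes. Lists and families were described by counts and medians, without a test. The fit was tested on simulated data. Only 2 arrays per group limit the precision.

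The members, lists and settings were chosen with earlier results of these data known. Genes were named by a rule: Mgl2, Clec10a and Retnla, up to 15 rises and 15 falls that passed with groups apart, free places up to 6 a direction by p among changes of at least 0.58, and of each list or family the genes that passed or the 2 with the smallest p. Outside that rule, Serpina4-ps1, Elovl3, Nudt7, Cyp4a12a, C8a, Gna14, Cyp2d9, Hsd3b2, Cyp2u1, Cd4, Selenbp1, Cyp2c69, Cyp2c39, Cyp2a4, Cyp2b13, Cyp3a16, Cyp3a44, Slc22a27, Slc22a7, Sult2a1, Fmo2, Ntrk2, Cux2, Cish, Ghr, Stat5b, Foxa2, Cebpa, Cyp7a1, Cyp8b1, Ppara, Cd36, Csf1r, C1qa, C1qb, C6, Clec4f, Timd4, H2-Eb1, Ifit3, Saa2, Lcn2, Xist and Uty were chosen after their values were seen. Promoter windows came from RefSeq (GRCm38.p6), which held 6 of the 9 genes that passed.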

Additional observations from a re-analysis of the deposited data

Results flagged for a closer look

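For 7 genes that changed in liver, the liver change differed from the mean change of both fat depots in limma's test of that difference (adjusted p = 0.012 to 0.0325). Higher in liver were Cyp2b9 (3.62), Slc22a26 (2.87), Cyp4a14 (1.98) and Cyp2c38 (1.41), and lower were Selenbp2 (-2.37), Onecut1 (-2.08) and Serpina4-ps1 (-4.12). Of these only Selenbp2 was above the filter level in fat. In the others the difference repeats the liver change by which they were chosen, and Slc22a26 was tested only because it was high in Mgl2-DTR liver. Groups of 2 arrays are too small for a check of single arrays that stand apart.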

How the results depend on the processing

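The genes that passed kept their direction in every alternative that tested them, over other filters, probes, scalings, fits and sets of arrays; the filter at the 75th percentile left Slc22a26 and Hsd3b5 out, and the other 7 passed. The main 9 became 16 with the filter on the liver mean or at an adjusted p under 0.10, and 1 in the fit of liver and epididymal arrays (Selenbp2). With single arrays left out it was 3 to 14. The liver minus fat count of 30 became 51 with liver and inguinal arrays, 0 with liver and epididymal arrays, and 0 to 244 with single arrays left out. With the replicate number as a block 2 genes passed in liver and 14 in the difference; same-numbered liver arrays deviated together with r = 0.09, over only 2 pairs and with no label on pairing, so the samples share only a number. With single arrays left out, Mgl2 ranged from -0.21 to 0.35, Selenbp1 from -0.07 to 0.16 and Saa2 from -0.52 to 3.57. The cause of these shifts was not tested. A fit of the liver arrays alone with their own filter (7 genes), and list counts without each liver array, were chosen after seeing the data. Levels under the filter may be background.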
